A study of Mus musculus with 4 samples.

Results

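The 10 genes described here serve melanin synthesis and the pigment organelle, and 8 of them could be tested in sciatic nerve, among 10858 genes tested and 19057 genes with a named probe on the array. They are Tyrp1, Dct and Tyr, enzymes of melanin synthesis, Pmel, Mlana and Oca2, proteins of the melanosome membrane or matrix, Rab38 and Mlph, which act in melanosome traffic, the transcription factor gene Mitf, and Ednrb, which encodes endothelin receptor B. All 19 probes carrying one of these symbols, current or older, were taken. The set was chosen by measured values, with the rise of Tyrp1 between the genotypes in view, so the differences of its members between genotypes are given as a description, without a test.

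Gene expression was measured on Illumina bead arrays in 4 pools of mouse sciatic nerve, each holding RNA of 3 nerves from 3 different mice. The 2 control pools came from mice with floxed LKB1 alleles and no Cre recombinase, and the 2 LKB1-SCKO pools from mutants whose Schwann cells lack the kinase LKB1, the product of Stk11, with 6 mice per genotype. All were 2 months old (postnatal day 60) and of a mixed FVB/C57BL/6 background, and by the series title the mutants had not yet lost axons. FVB is an albino strain and C57BL/6 a pigmented one; the control titles hold the word mixed and the LKB1-SCKO titles do not, although the strain label is the same on all 4 pools. The labels give neither the share of each strain nor the coat colour of the mice in a pool, nor the promoter that drove Cre, so a difference in strain cannot be told apart from genotype in any pigment gene.

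Melanocytes and Schwann cells both descend from the neural crest, and pigment cells of skin can arise from Schwann cell precursors on growing nerves. Within the melanosome, tyrosinase starts melanin synthesis, and the related enzymes encoded by Dct and Tyrp1 act on later intermediates. MITF, the central transcription factor of pigment cells, binds a short element called the M-box in the promoters of the 3 enzyme genes. A whole nerve also holds fibroblasts, macrophages, mast cells and vessels, some of which use Mitf or Ednrb, and in pooled tissue more cells of a type cannot be told apart from more RNA per cell.

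Promoter windows were read for the members that RefSeq's table holds (build GRCm38.p6, 250 bases before to 50 after the start). They covered 7 of the 10 genes and not Pmel, Mlana and Rab38. The M-box searched was TCATGTG on either strand, whose letters include the shorter CATGTG. It lay in the windows of Tyrp1, Tyr and Dct, whose stretches are shown because these genes are the 3 members of the tyrosinase family and the only ones of the set with a match. Capitals mark the M-box or its reverse complement, and each stretch runs 5′ to 3′ on the gene's own strand. The Tyrp1 stretch is chr4:80834113-80834232 (plus strand), the Tyr stretch chr7:87493493-87493612 (minus strand) and the Dct stretch chr14:118052377-118052496 (minus strand). The Tyrp1 and Tyr stretches start 100 bases upstream of the start and the Dct stretch 250 bases upstream.
Tyrp1: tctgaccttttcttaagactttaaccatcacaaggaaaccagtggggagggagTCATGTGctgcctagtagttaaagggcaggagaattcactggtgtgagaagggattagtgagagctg
Tyr: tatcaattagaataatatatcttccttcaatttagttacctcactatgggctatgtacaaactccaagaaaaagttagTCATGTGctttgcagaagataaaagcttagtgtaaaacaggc
Dct: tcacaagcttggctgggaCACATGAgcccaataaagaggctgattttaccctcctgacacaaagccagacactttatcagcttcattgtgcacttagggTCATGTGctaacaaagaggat

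The match began 47 bases upstream of the start in Tyrp1, 22 bases upstream in Tyr, and 151 and 232 bases upstream in Dct, the latter in reverse orientation. Of all 32851 promoter windows in the table, 3.77% held TCATGTG or its reverse complement, and 14.2% held CATGTG or its reverse complement. Neither was found in the windows of Ednrb, of Mlph or of the 3 Mitf starts, and Oca2 held only the shorter one, 186 bases upstream. The palindromic E-box CACGTG, present in 7.15% of windows, was found among these genes in Mlph alone, 48 bases upstream. A match describes letters and not binding, and the M-box was present in the windows of Tyrp1 and Dct, which were detected in both LKB1-SCKO pools, as well as in that of Tyr, which was not detected in any pool.

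**Figure D1:**
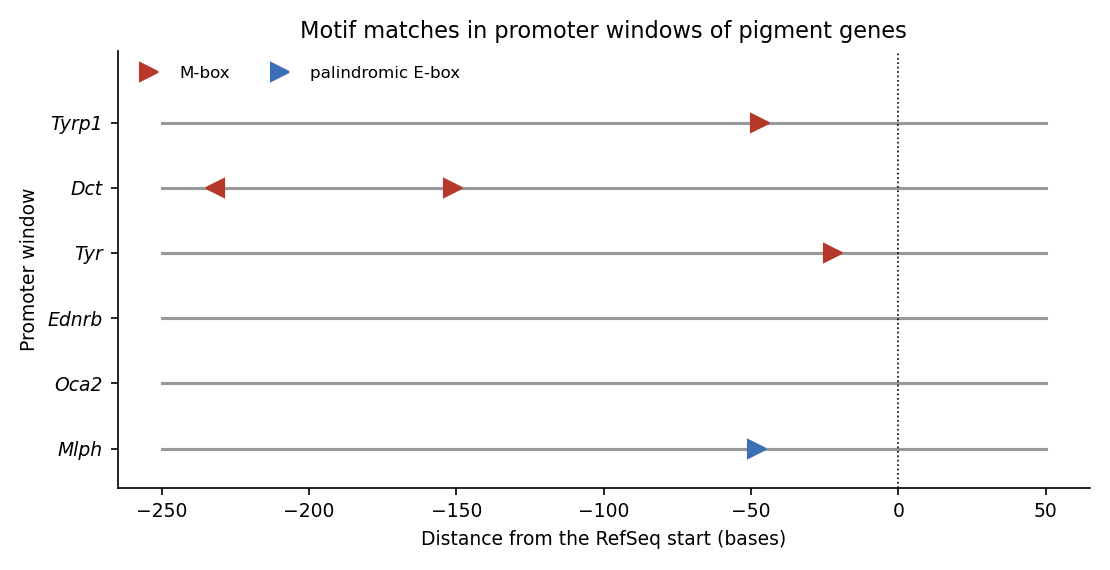
Positions of the M-box (red) and of the palindromic E-box (blue) along 6 promoter windows, in bases from the RefSeq start (dotted line), with the arrow pointing along the matched strand. The M-box is seen in Tyrp1, Dct and Tyr, with 2 matches in Dct, and the E-box in Mlph.

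The arrays were alike in brightness, with median non-normalized signals of 153 to 167 array units and 43.3% to 45.6% of 45281 probes detected. A probe counts as detected where its detection p-value, set against the negative control beads of the same array, is under 0.05. Log2 values correlated across genes at 0.99 between control pools and 0.986 between LKB1-SCKO pools, although genes are no independent replicates. The targeted gene Stk11 was lower in LKB1-SCKO (log2 fold change -0.80, SE 0.133, limma, adjusted p = 0.0448), and its call ended without any 1 of the 4 pools (adjusted p = 0.0791 to 0.217); the sources used here do not place its probe inside or outside the deletion. Schwann cell markers, 7 tested of 10, had summed normalized signals of 141300 to 145400 in control and 131300 to 137200 in LKB1-SCKO pools, and none of the 7 passed the test.

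Tyrp1, whose enzyme acts late in the synthesis of brown-black melanin, lay near background in control nerve and far above it in LKB1-SCKO nerve. Its brightest probe read 174 and 141 array units in control 1 and control 2, and 5819 and 5028 in LKB1-SCKO 1 and LKB1-SCKO 2. Only control 1 of the control pools reached detection, at a detection p-value of 0.0107, and the lowest LKB1-SCKO pool stood far above both. After background correction and quantile normalization the log2 values were 5.63 and 4.61 in control and 12.56 and 12.27 in LKB1-SCKO, a log2 fold change of 7.29 (SE 0.348, n = 2 pools per genotype). Because control 2 was at background, this size, like those of Dct and Pmel, which also had 1 undetected control pool, rests partly on background and is not a firm fold. On this probe the control pools differed from each other by 1.02 on the log2 scale and the LKB1-SCKO pools by 0.30.

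The other 2 Tyrp1 probes gave the same direction. One read 157 and 150 in the control pools against 1528 and 1043 in the LKB1-SCKO pools, and was at least 31.7-fold higher in LKB1-SCKO. The other read 132 and 157 against 1040 and 673, at least 19.8-fold higher. Neither was detected in a control pool, so the folds are lower bounds for the main setting. They set the mean LKB1-SCKO log2 value against the lowest detected signal of the control arrays. On all 3 probes LKB1-SCKO 1 was brighter than LKB1-SCKO 2. All 3 probes read the same pools and are not independent of each other.

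Dct, which encodes dopachrome tautomerase, was also higher in both LKB1-SCKO pools. Its brighter probe read 168 and 151 in control 1 and control 2, and 262 and 389 in LKB1-SCKO 1 and LKB1-SCKO 2. The groups did not overlap, and control 1 alone of the control pools was detected. The log2 fold change was 2.42 (SE 0.328). The dimmer probe, undetected in both controls, read 142 and 128 against 197 and 249, at least 2.49-fold higher. On both Dct probes LKB1-SCKO 2 was the brighter LKB1-SCKO pool, by 0.77 and 0.59 on the log2 scale, the opposite order to the Tyrp1 probes, whose gaps were 0.30, 0.72 and 0.87. With 2 pools per genotype this order was not tested.

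Tyr, the tyrosinase gene itself, was not detected. Its single probe read 128 and 147 in control and 147 and 162 in LKB1-SCKO pools, with detection p-values of 0.839, 0.403, 0.303 and 0.226. All 4 readings lay in the range of the negative controls, so no fold is given, and with 1 probe a lack of signal cannot be told apart from a probe that works poorly.

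Pmel, whose protein forms the fibrils on which melanin is laid down, was higher in both LKB1-SCKO pools. Its brighter probe read 158 in control 1 and 174 in control 2, beside 331 and 359 in LKB1-SCKO nerve. Both LKB1-SCKO pools exceeded both controls, of which control 2 was detected. The log2 fold change was 2.47 (SE 0.163), with LKB1-SCKO pools only 0.008 apart on that scale. The second probe was dimmer and less even, at 159 and 154 against 219 and 189, at least 1.95-fold higher with a gap of 0.94 between the LKB1-SCKO pools.

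Mlana, a melanosome membrane protein gene widely used as a melanocyte marker, was not detected in any pool. Its single probe read 137 and 153 in control and 138 and 166 in LKB1-SCKO pools, and the groups overlapped. Oca2, which encodes a melanosomal transporter, came just over the detection limit in LKB1-SCKO. It read 146 and 157 in control against 183 and 188 in LKB1-SCKO, with detection p-values of 0.28 and 0.121 in control and 0.00214 and 0.00855 in LKB1-SCKO. The groups did not overlap, and the difference was at least 1.49-fold in the main setting only. Without background correction the fitted log2 difference of Oca2 was 0.25.

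The 2 genes of melanosome traffic differed little. Rab38, a small GTPase gene, was detected in every pool by both probes. Its brighter probe read 345 in each control pool against 374 and 410 in LKB1-SCKO, with a log2 fold change of 0.32 (SE 0.126). The dimmer probe read 200 and 224 against 220 and 236, so that its unprocessed signals overlapped between genotypes. Mlph, the melanophilin gene that links RAB27A to myosin Va, had 1 probe at the detection limit, with 176 and 163 in control and 162 and 181 in LKB1-SCKO. These groups overlapped, and the log2 fold change was -0.08 (SE 0.211). Its other probe was detected in no pool.

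Mitf was dim in every pool, with a small difference. The probe to its RefSeq transcript read 173 in control 1 and 164 in control 2, beside 183 and 198 in LKB1-SCKO nerve. The 4 readings were all detected and did not overlap by group, with a log2 fold change of 0.51 (SE 0.176). A second Mitf probe, designed on a cDNA clone, was detected in no pool. Which of the several Mitf starts these probes can read is not given in the sources used here.

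Ednrb, the receptor through which endothelins act on crest cells and glia, was well above background in every pool and higher in both LKB1-SCKO pools. Its brightest probe read 1192 and 1094 in control 1 and control 2, and 5028 and 4748 in LKB1-SCKO 1 and LKB1-SCKO 2. Each genotype was tight, with gaps of 0.18 and 0.17 on the log2 scale against a log2 fold change of 2.31 (SE 0.146), a 4.97-fold difference. The second probe read 249 and 294 against 700 and 635, a log2 fold change of 1.99. The third read 135 to 162 across all pools and was detected in LKB1-SCKO 1 only, so the 3 probes do not measure the gene equally well.

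**Figure D2:**
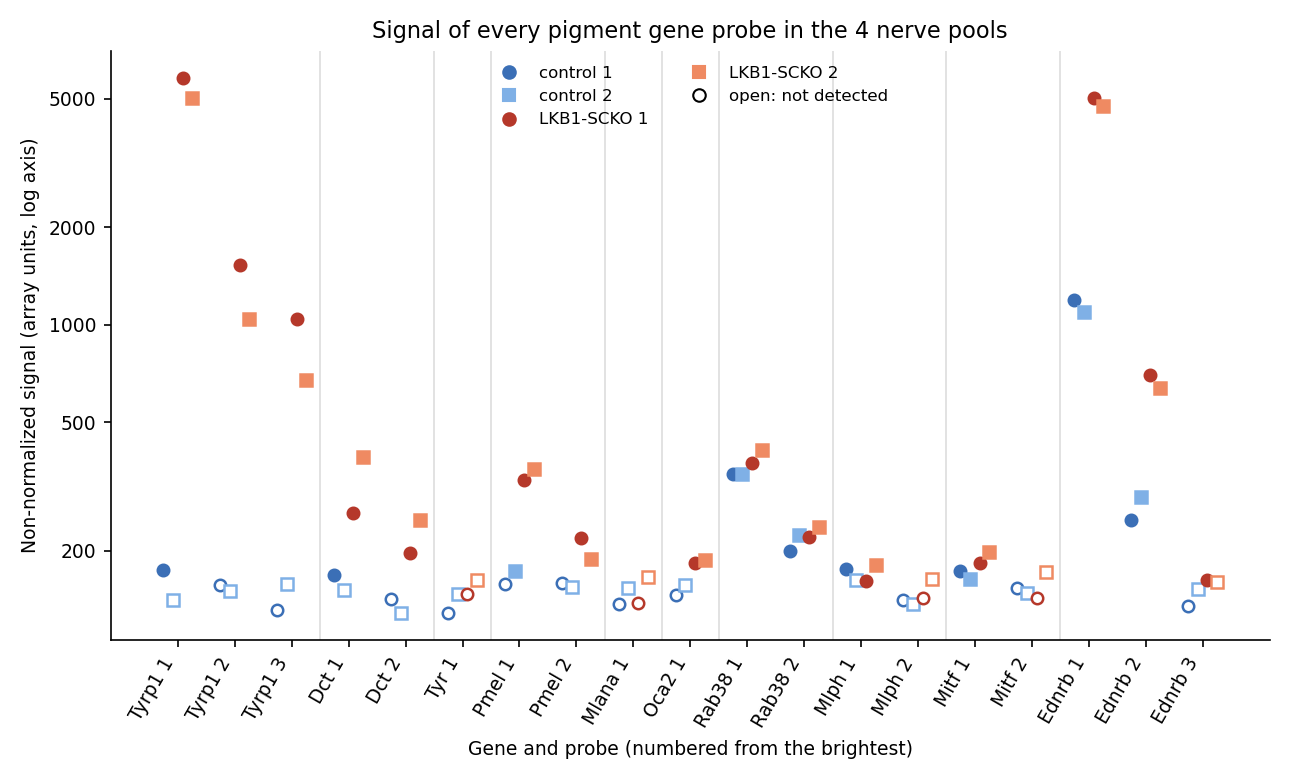
Non-normalized signal in array units (log axis) of all 19 probes of the 10 genes, 1 point per nerve pool, with controls in blue, LKB1-SCKO in red and orange, and open symbols where the probe was not detected. The 3 Tyrp1 probes and the 2 brighter Ednrb probes separate most, while Tyr, Mlana and the dimmer probes of Mlph and Mitf have open symbols in all pools.

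Of the 8 members tested, 7 stood above 0 with pools that did not overlap and 1, Mlph, overlapped. Among all genes tested, 29.3% had both LKB1-SCKO pools above both controls and 55.1% had pools that did not overlap in either direction. Past the limma threshold used for all genes (Benjamini-Hochberg over 10858 genes) were 4 members, Tyrp1, Dct, Pmel and Ednrb, all higher, against 3.79% of all genes, 2.46% higher and 1.34% lower. Dct no longer passed without control 2, where its log2 fold change was 2.09. Of the 19 member probes, 5 were detected in both LKB1-SCKO pools and in no control pool, against 0.713% of all probes, and 4 were detected in no pool, against 48.0%. Because the set was chosen on this comparison, nothing is read from these shares. The median log2 fold change was 1.58 over the 8 tested members, or 1.44 with Oca2, undetected in both controls, at its bound, and 0.012 over all genes.

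The sizes moved with the background correction. Without background correction the log2 fold changes were 5.14 for Tyrp1, 0.99 for Dct, 1.06 for Pmel, 0.15 for Mitf and 2.17 for Ednrb. With the authors' processed values, which reach below 0 for dim probes and were set to at least 16 before log2, they were 7.83, 2.96, 3.10, 0.78 and 2.36 in the same order. Ednrb, well above background in all pools, moved least of these 5 genes. Taking the mean over a gene's kept probes in place of the brightest gave 5.74 for Tyrp1 and 1.78 for Pmel. All 5 kept their direction in these settings.

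**Figure D3:**
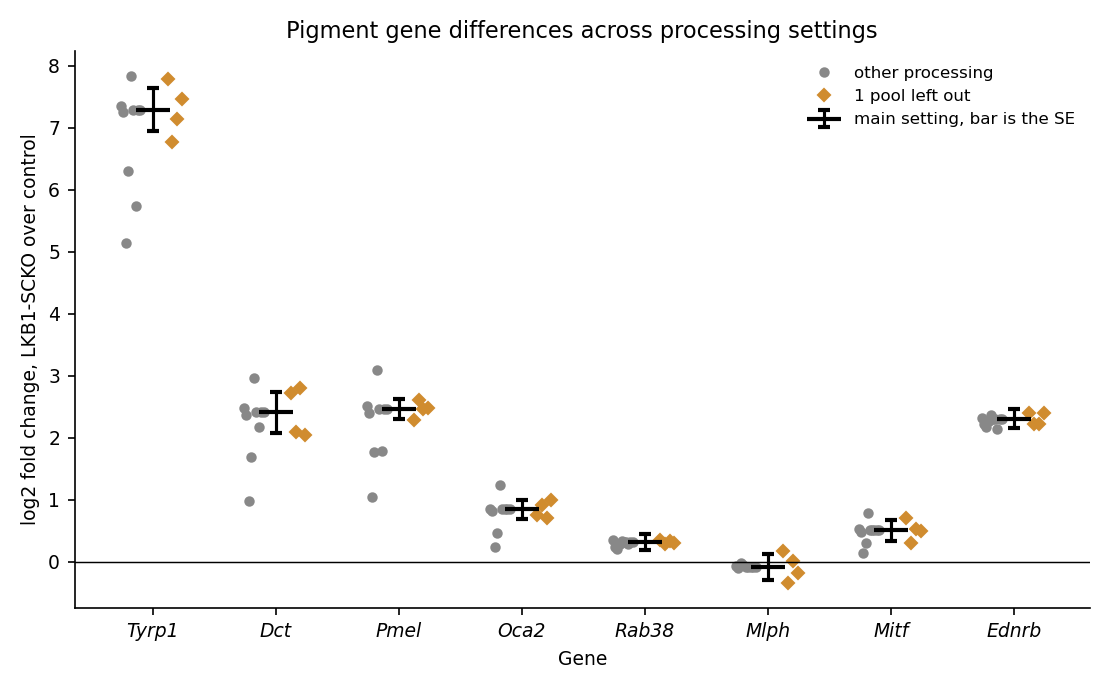
Log2 fold change of the 8 tested genes in the main setting (black, bar is the SE from limma), under other processing (grey) and with 1 pool left out (orange). Tyrp1 ranges from 5.14 to 7.83, Dct from 0.99 to 2.96, and Ednrb from 2.15 to 2.40; Mlph lies on both sides of 0. The Oca2 values are set against control pools at background and give no size.

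Other genes of pigment cells were read from 5 lists of 73 genes in all, of which 51 were tested. Only Tfap2a passed, 1 higher and 0 lower, with 28 of the 51 above 0 and 23 below. At an unadjusted p under 0.05 (limma) were 13 of the 51, beside 2427 of all 10858 genes tested. The unadjusted counts of single lists below stand beside this same share, and nothing is read from them. The median log2 fold change of the 51 was 0.054, beside 0.012 over all genes. Tfap2a encodes the crest and pigment cell transcription factor AP-2 alpha. It rose from undetected in both control pools, at 150 and 154 array units, to 221 and 228 in LKB1-SCKO, at least 2.61-fold in the main setting only. Its probe entered the fit only through detection in both LKB1-SCKO pools, so its call was made against background readings. The lists were chosen with earlier results known, so this call is no independent test. The fitted log2 difference of Tfap2a, no measured fold, was 1.67 in the main setting and 1.08 with the mean over its kept probes. Without background correction it was 0.54, and with the authors' processed values 2.25. Tfap2a was not tested where detection on all 4 arrays was required.

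The listed transcription factors of pigment cells did not move together. Sox10, a factor of both Schwann cells and melanocytes, was bright at log2 values of 13.67 and 13.49 in control and 13.67 and 13.71 in LKB1-SCKO, a log2 fold change of 0.11 (SE 0.136, adjusted p = 0.674). Pax3, its partner at the Mitf promoter in melanocytes, was detected in no pool, with 145 and 139 array units in control and 154 and 146 in LKB1-SCKO. Besides Tfap2a, 9 further factors of this list of 14 were tested and none passed in the main setting. Of the 10 tested, 5 stood above 0 and 5 below, with 2 at an unadjusted p under 0.05 (limma), Tfap2a and Sox5. Sox5, named after its values were seen, read 619 and 561 array units in control and 925 and 891 in LKB1-SCKO. Its log2 fold change was 0.83 (SE 0.152, limma, adjusted p = 0.0549). Sox5 passed without background correction, with an offset of 50 and with the mean over probes.

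Among ligands and receptors, 5 of 11 were tested and 0 passed (2 at an unadjusted p under 0.05, limma). Kit, the receptor of stem cell factor on melanocytes and mast cells, read 343 and 309 array units in control and 444 and 439 in LKB1-SCKO, a log2 fold change of 0.73 (SE 0.17, adjusted p = 0.0892). The other gene at an unadjusted p under 0.05, named after its values were seen, was Atrn, the gene of the mahogany coat colour locus. It read 315 and 318 in control and 236 and 262 in LKB1-SCKO, a log2 fold change of -0.61 (limma, adjusted p = 0.0734). Edn3, the ligand of Ednrb in crest development, was detected in LKB1-SCKO 1 only, at 166 array units beside 161 in LKB1-SCKO 2 and 137 and 130 in control. Mc1r, the melanocortin receptor gene, was detected in no pool, with readings of 143 to 149. The list's 2 brightest tested genes were Mgrn1, a ubiquitin ligase gene whose loss darkens mouse coat, at -0.11 (adjusted p = 0.668), and Ece1, which makes an endothelin-converting enzyme, at 0.16 (adjusted p = 0.527).

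Melanosome proteins and transporters outside the set had 5 of 11 genes tested and 0 past the threshold (3 at an unadjusted p under 0.05, limma). The brightest were Cd63, a tetraspanin gene that sorts PMEL and serves late endosomes of many cells, at 0.55 (adjusted p = 0.116), and Bace2, a protease gene that cleaves PMEL in melanocytes, at -0.28 (adjusted p = 0.316). Slc45a2, a melanosomal transporter gene, was detected in no pool, with 146 and 160 array units in control and 156 and 172 in LKB1-SCKO. For melanosome assembly and transport 24 of 27 genes were tested and 0 passed (5 at an unadjusted p under 0.05, limma). The list's median log2 fold change was 0.057. Its brightest genes, the BLOC-1 subunit genes Bloc1s5 and Bloc1s1, stood at -0.27 (adjusted p = 0.39) and -0.18 (adjusted p = 0.452). The 5, named after their values were seen, were Rab27a, Rabggta, Rab32 and Hps6, which were higher, and Mreg, which was lower. Rab27a stood at 0.76 (limma, adjusted p = 0.0576) and Mreg at -0.665 (adjusted p = 0.12). Rab27a passed without background correction and with an offset of 50. Of 10 further MITF targets 7 were tested and 0 passed (1 at an unadjusted p under 0.05), with 4 above 0 and 3 below. The brightest were the protease gene Ctsk at 0.09 (adjusted p = 0.839) and the kinase gene Cdk2 at 0.03 (adjusted p = 0.93). The 1 gene, named after its values were seen, was Tbx2 at 1.08 (SE 0.225, limma, adjusted p = 0.0716). Tbx2 passed without background correction and with an offset of 50.

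**Figure D4:**
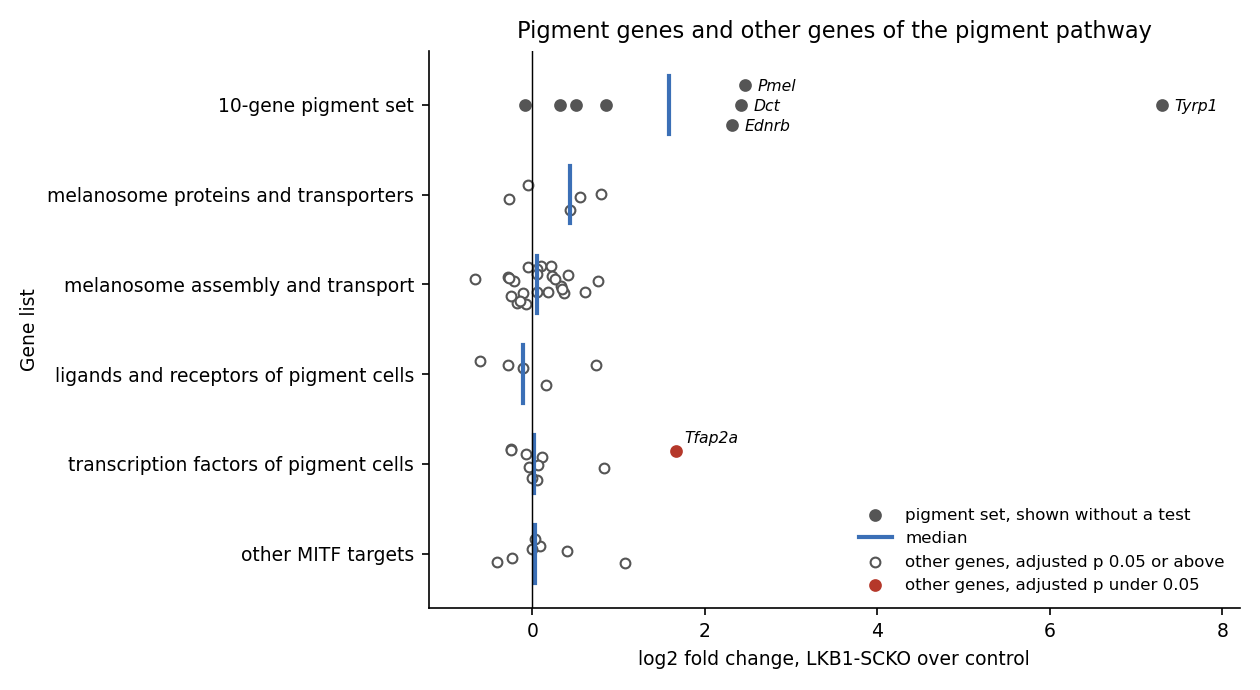
Log2 fold change of the 8 tested pigment genes (top, shown without a test) and of 51 tested genes in 5 lists of other pigment pathway genes, 1 point per gene, with blue bars at medians and red where limma's adjusted p was under 0.05. Tfap2a is the only red point, and its size, set against control pools at background, is a fitted value and no measured fold.

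Checked against 9 melanocyte markers, of which 5 belong to the set, the nerve pools were positive for some and not for others. Tyrp1, Dct and Pmel were detected in both LKB1-SCKO pools, whereas Tyr, Mlana, Slc45a2, Gpr143 and Trpm1 were detected in no pool and Slc24a5 only in control 2. The summed normalized signal of the 3 tested markers was 129 and 98.0 in control and 6417 and 5390 in LKB1-SCKO, where Tyrp1 made up most of it. These 3 belong to the set chosen on this comparison, so their signals restate that choice. Tyr and Mlana, each with 1 probe, were at background in every pool. For such a gene a lack of signal cannot be told apart from a probe that works poorly.

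Markers of other cells that could carry these transcripts moved as follows. Keratinocyte and hair markers, which would come with skin, had 2 of 9 tested and 0 past the threshold. Of the 9, 6 were detected in no pool, Krt5 and Krt14 among them. The 2 tested, Krt10, at 1106 to 1241 array units, and Krt17, were detected in every pool. They alone make up the summed normalized signals of 1053 and 1134 in control and 1279 and 1172 in LKB1-SCKO. Macrophage markers, whose cells also use Mitf, had 9 of 10 tested, with 6 above 0 and 3 below. Past the threshold were 2, both higher, Cx3cr1 at 1.87 and Ms4a7 at 2.83, named after their values were seen. Csf1r stood at 0.24 and Mrc1 at -0.475, and neither passed. Summed signals were 4756 and 7548 in control and 11880 and 8162 in LKB1-SCKO, with Lyz2 the brightest marker in each pool. Mast cell markers, another lineage with Mitf and Kit, had 7 of 8 tested and 0 past the threshold (1 at an unadjusted p under 0.05, limma). That 1 gene was Kit itself, which is on this list. The summed signals, Kit included, were 2599 and 2382 in control against 3205 and 3049 in LKB1-SCKO. The part of macrophages and mast cells in the values of Mitf and Kit was not tested.

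Endothelial markers, whose cells use Ednrb, had 7 of 8 tested and 0 past the threshold (1 at an unadjusted p under 0.05, limma), with summed signals of 7896 and 6536 in control against 7096 and 7954 in LKB1-SCKO. The gene at an unadjusted p under 0.05 was Plvap, named after its values were seen, at 589 and 270 array units in control and 1018 and 932 in LKB1-SCKO (limma, adjusted p = 0.152). The part of endothelial cells in the Ednrb values was not tested. Fibroblast markers had 7 of 7 tested and 0 past it (2 unadjusted), at 82940 and 98420 against 77680 and 66230. Skeletal muscle markers were low in LKB1-SCKO 1 alone, at 15200, beside 61100 in LKB1-SCKO 2 and 49580 and 45480 in control. Without LKB1-SCKO 1 the log2 fold changes were 7.15 for Tyrp1, 2.80 for Dct, 2.47 for Pmel and 2.22 for Ednrb.

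The genes whose pattern over the 4 pools lay nearest to that of Tyrp1 were named by a rule that compares log2 values centred on each gene's mean by their Euclidean distance. They were Piwil4 at a distance of 2.69, Nmu at 2.85, Nr1h4 at 3.25, Cxcl14 at 3.39 and Pacsin1 at 3.62. Piwil4, Nmu and Nr1h4 were undetected in both control pools and at least 25-fold, 21.5-fold and 15.1-fold higher in LKB1-SCKO, so their distances to Tyrp1 include readings at background. All 4 arrays enter the distance, and 4 points carry no test.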

How the data were processed

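RNA of 4 sciatic nerve pools was hybridised to Illumina mouse bead arrays. Per the file headers, the deposited table gives non-normalized signal intensity and a detection p-value for each of 45281 probes, with steps that imply 936 negative controls. The deposited value table holds the authors' processed intensity, on a linear scale from -53.1 upward; the sources used here do not say how it was made. The submitters' processing notes list GenomeStudio (2010). Probe symbols came from the platform annotation (34885 probes with 1 symbol, 18 with several, 10378 with none) and were updated by gene ID (34807 matched). With limma 3.58.1 in R 4.3.3, signals were normexp-corrected (offset 16), quantile-normalized and put on log2. Probes detected on both arrays of at least 1 genotype were kept (19732), the brightest stood for its gene, and genotypes were compared by lmFit and eBayes, two-sided, adjusted over 10858 genes. The fit was tested on simulated data. A bound written "at least" sets the bright group's mean against, on each dim array, the lowest detected signal or the probe's own value, whichever is higher. Every such bound belongs to the main setting, and the differences of Tfap2a and Oca2 were smaller without background correction. The members and lists were chosen with earlier results of these data known. Named genes were all members, list genes past the threshold or else the 2 brightest of a list, 6 fixed pathway genes, Stk11, and the 5 nearest to Tyrp1, unnamed clones left out. Pathway genes outside this rule are marked as named after their values were seen. Deviations of same-numbered pools from their group means correlated weakly and negatively (r = -0.172 across genes), so numbers were not treated as pairs. Some genes of the pathway and marker lists were not analysed here.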

Additional observations from a re-analysis of the deposited data

How the results depend on the processing

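Precision is limited by having only 2 arrays for each genotype, and probes near background have no reliable fold. The count of genes called was 412 in the main setting, 635 without background correction, 172 with the replicate number as a block, 349 with a crossed replicate block (chosen after seeing the data, since the same-numbered pools deviated oppositely), and 117 to 431 with 1 pool left out (117 without control 2, 154 without control 1, 220 without LKB1-SCKO 1). The cause was not tested. The pathway count of 1 higher gene became 5 without background correction, 4 with an offset of 50, 2 with the mean over probes, and 0 where detection on all 4 arrays was required, since Tfap2a then was not tested; the count of 0 lower genes did not change in any setting. Dct left the called genes with the replicate block, and Oca2, Dct, Pmel, Tyrp1 and Mlph had no value where detection on all 4 arrays was required. Oca2, kept only through its detection in LKB1-SCKO, passed with the authors' processed values alone. The members were chosen on this comparison, so their calls are a description and no test. Stk11 also missed the threshold with the authors' processed values (adjusted p = 0.0625), without the detection filter (0.0582), with the replicate block (0.109) and with the crossed block (0.068).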

Other observations

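Genes nearest in pattern to the other 3 raised pigment genes were listed by the same distance, a choice made after their values were seen. Nearest to Ednrb were Lamp5 (0.0842), a lysosome-associated membrane protein gene undetected in control pools and at least 3.43-fold higher in LKB1-SCKO, Cela1 (0.131) and Sox4 (0.164), a transcription factor gene of progenitor cells. Sox4 read 7.80 and 7.76 on the log2 scale in control and 10.29 and 10.15 in LKB1-SCKO. Nearest to Pmel were the cadherin gene Cdh6 (0.236), at 5.35 and 5.57 against 8.07 and 7.76, Emid1 (0.254) and Rps6kl1 (0.264). Nearest to Dct were the splicing factor gene Esrp1 (0.44), at 7.01 and 6.87 against 9.30 and 9.78, Piwil1 (0.457) and the gluconeogenic enzyme gene Fbp1 (0.467), which like Dct were brighter in LKB1-SCKO 2 than in LKB1-SCKO 1. Lamp5, Rps6kl1 and Fbp1 were undetected in both control pools, so their distances include readings at background. Such lists gather genes with a rise of similar size and do not show that they share a cell or a regulator.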
